A study of Mus musculus with 12 samples.

Results

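Polyamine metabolism was followed through 10 genes, chosen by name as members of the pathway, with earlier results of these data known: the synthesis enzymes Odc1, Amd1, Srm and Sms, the antizymes Oaz1 and Oaz2 with the antizyme inhibitor Azin1, the catabolic enzymes Sat1 and Smox, and the hypusination enzyme Dhps. All 10 were found among the 55421 gene identifiers of the table, and all 10 passed the filter on low counts. Gene counts were available for 12 libraries of RNA from mouse small intestine, which form 3 groups of 4. The WT group is labelled wild type at day 7. The Apc group carries floxed Apc alleles (Apc fl/fl) and VilCreER, a Cre recombinase that is switched on by tamoxifen and driven by the villin promoter in the epithelial cells of the gut, at day 4. The Apc Eif3h group carries VilCreER with Apc fl/fl and Eif3h fl/fl, also at day 4. The treatment text, given for all 12 libraries, has 2 tamoxifen injections of 80 mg/kg 24 hours apart and harvest after 7 days, which differs from the day 4 label. Genotype and day therefore cannot be told apart in comparisons with WT. Strain, age and the presence of the Cre in WT mice were not given in the sources used here. The labelled sex shows at least 2 mice in WT and in Apc, but nothing says that every replicate came from its own mouse, so part of the spread between libraries may be technical.

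Polyamines are small positively charged molecules, putrescine, spermidine and spermine, that bind nucleic acids and are needed for growth, and the renewing epithelium of the gut has a high demand for them. Ornithine decarboxylase (Odc1) makes putrescine, S-adenosylmethionine decarboxylase (Amd1) makes the aminopropyl donor, and spermidine synthase (Srm) and spermine synthase (Sms) add the aminopropyl groups. Antizymes bind ornithine decarboxylase and send it to the proteasome, antizyme inhibitor sequesters antizyme, and spermidine is also the substrate from which deoxyhypusine synthase (Dhps) modifies the translation factor eIF5A. Odc1 is a textbook target of the transcription factor MYC.

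Antizymes are controlled at translation, where polyamines promote a shift of the reading frame past a stop codon, so gene counts do not show how much antizyme is made. The sequence at which the frame shifts is shown for both antizyme genes and for Oaz1-ps, a processed pseudogene of Oaz1, because it also shows how alike the pseudogene is. Each line gives 67 bases of a GENCODE transcript, 5′ to 3′, with the 7-base shift site, which holds the stop codon TGA, in capitals.
Oaz1 (chr10:80828262-80828328, plus strand, GRCm38): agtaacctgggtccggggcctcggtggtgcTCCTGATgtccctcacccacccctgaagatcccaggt
Oaz1-ps (chr17:17345903-17345969, minus strand, GRCm38): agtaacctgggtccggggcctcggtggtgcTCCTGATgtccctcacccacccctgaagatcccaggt
Oaz2 (chr9:65686239-65686305, plus strand, GRCm38): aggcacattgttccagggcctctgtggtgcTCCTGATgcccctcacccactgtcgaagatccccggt
Over this stretch Oaz1-ps differed from Oaz1 at 0 positions and Oaz2 differed from Oaz1 at 13. The stretches of Oaz1 and Oaz2 are exonic, and the annotated coding models of both genes each leave out 4 bases within the capitals (80828292 to 80828295 for Oaz1).

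In the GRCm38 annotation the synthesis genes lie at separate places, Odc1 (ENSMUSG00000011179) on chromosome 12, 17544794 to 17551505, plus strand, Amd1 (ENSMUSG00000075232) on chromosome 10, 40287458 to 40302186, minus strand, Srm (ENSMUSG00000006442) on chromosome 4, 148591503 to 148594993, plus strand and Sms (ENSMUSG00000071708) on chromosome X, 157443855 to 157492287, minus strand. The regulators are Oaz1 (ENSMUSG00000035242) on chromosome 10, 80826656 to 80829290, plus strand, Oaz2 (ENSMUSG00000040652) on chromosome 9, 65668001 to 65690300, plus strand and Azin1 (ENSMUSG00000037458) on chromosome 15, 38487427 to 38519266, minus strand. The catabolic genes are Sat1 (ENSMUSG00000025283) on chromosome X, 155213132 to 155216449, minus strand and Smox (ENSMUSG00000027333) on chromosome 2, 131491496 to 131525922, plus strand. The hypusination gene is Dhps (ENSMUSG00000060038) on chromosome 8, 85071757 to 85075162, plus strand.

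Short reads make such copies matter for these counts. Reads were of 36 cycles per end, and 29.2% of the 36-base stretches in Odc1 transcripts, 81.5% in Amd1, 23.2% in Oaz1 and 18.4% in Sms also occurred in transcripts of another gene, against 0% in Smox and 4% to 10.7% in the other 5 members. Oaz1-ps carried 12782 counts, 50.9% of the 25134 on Oaz1, and Sms-ps carried 1712 counts, 69.5% of the 2465 on Sms. Odc1 had 12 copies that share at least 100 such stretches, 10 of them with counts, together 22% of its own. Most of Amd1 cannot be told from its retrogene Amd2, which shared 80.5% of its stretches and held 156 counts against 4584. How the authors treated reads that map to several places was not given in the sources used here, so the counts of Odc1, Amd1, Oaz1 and Sms are uncertain. Dhps shares 128 exonic bases with Wdr83 on the opposite strand, which held 4530 counts against 4820 on Dhps, and Azin1 shares 358 with the antisense gene Gm49077, which held 16 counts in all. Without a stated strand setting, reads in the shared bases cannot be assigned to 1 of the 2 genes.

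**Figure D1:**
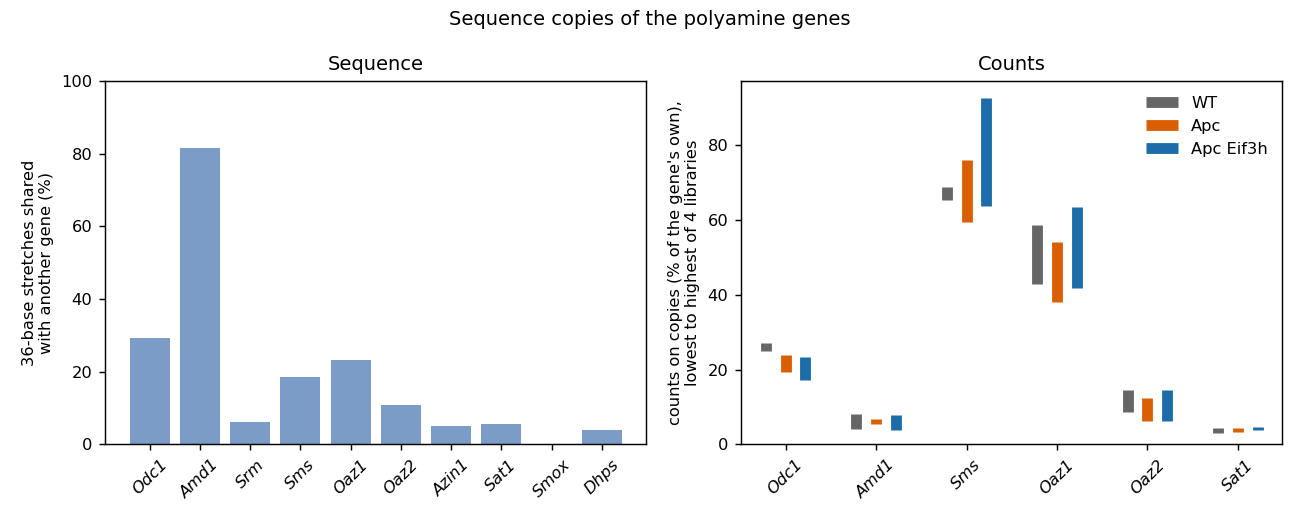
Left, the share of 36-base stretches in each gene's transcripts that another gene's transcripts also hold (percent), overlapping genes included. Right, counts on the sequence copies as a percentage of the gene's own counts, with bars from the lowest to the highest of 4 libraries in each group; the bars of Sms and Oaz1 lie above those of the other genes.

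Library totals were 10483112 to 21298301 counts. Eif3h, in CPM (counts scaled to a common library size with TMM factors), was at 126 to 142 in WT and 158 to 175 in Apc. In Apc Eif3h it was at 25.9 to 54.6, highest in replicate 3. Whole-gene Apc counts need not show loss of a floxed exon and were at 94.2 CPM in WT and 114 in Apc. All 5 epithelial markers checked (Epcam, Vil1, Cdx2, Krt8, Cdh1) were detected, with a summed level of 6160 to 8670 CPM in WT, 5340 to 6240 in Apc and, with Eif3h also floxed, 4590 to 6840. The summed level of 10 enterocyte markers was 35000 to 47900 CPM in WT, 14400 to 23900 in Apc and, with Eif3h also floxed, 17600 to 29200. Of these markers 8 were called lower in Apc than in WT (edgeR quasi-likelihood test, adjusted p below 0.05) and 2 were not called. Over all genes tested 24.1% were called lower. For 10 cell cycle genes the summed level was 374 to 549, 1010 to 1310 and 905 to 1330 CPM. All 10 were called higher in Apc by the same test, where 27.7% of all genes tested were. T cell markers (6 genes, none at 0 in all libraries) summed to 120 to 380, 56.9 to 95.2 and 62.2 to 99.4 CPM, and B and plasma cell markers (6 genes) to 811 to 2750, 354 to 940 and 308 to 1390 CPM, with the highest Apc Eif3h value in replicate 2. In the same order of groups, fibroblast markers (6) summed to 821 to 1720, 719 to 1230 and 521 to 709 CPM, macrophage and neutrophil markers (6) to 124 to 426, 119 to 147 and 96.2 to 260, smooth muscle markers (6) to 1260 to 2100, 1160 to 1400 and 1040 to 1530, endothelial markers (5) to 93.6 to 177, 85.4 to 105 and 70.2 to 103, and neuron and glia markers (5) to 26.2 to 30, 17.1 to 17.8 and 13.2 to 17.3. The enterocyte and cell cycle levels, and those of T cell and neuron and glia markers, separate WT from both other groups as several polyamine genes described next do, and their part in those results was not tested. In bulk tissue, fewer cells of a type and less RNA per cell cannot be told apart.

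The question of the first comparison is how Apc-deficient intestine differs from wild type. All 4 synthesis genes rose in Apc, Smox and Dhps rose too, and Azin1 and Sat1 fell, while Oaz1 and Oaz2 did not pass the test. That is 6 of 10 genes higher and 2 lower (edgeR quasi-likelihood test, Benjamini-Hochberg adjusted p below 0.05). Over all 17394 genes tested 27.7% were higher and 24.1% lower, 51.8% in all, so more of these genes rose than the background share and about as many fell. Their median log2 fold change was 0.51, against -0.01 for all genes tested. In 9 of the 10 the 4 Apc libraries did not overlap the 4 WT libraries, which held for 48.8% of all genes tested. With library totals as the only scaling the median of all genes rose to 0.221 and the share of calls that were higher went from 53.5% to 74%; the 6 calls of higher level then stood and the 2 calls of lower level were both lost.

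Spermidine synthase, Srm, had the largest fold change of the 10. It was at 12.7, 11.3, 9.48 and 8.90 CPM in the WT libraries, 56.9, 38.9, 33.8 and 47.4 in Apc, and 116, 99.1, 50.6 and 87.4 in Apc Eif3h. Every library of either Apc-deficient group lay above all WT libraries, while the Apc and Apc Eif3h libraries overlapped at 50.6 to 56.9 CPM. Srm rose 4.17-fold from WT to Apc (log2 fold change 2.06, SE 0.24, adjusted p = 4.26e-05). Of its 36-base stretches 93.9% were its own, so few of its reads have another possible source.

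Amd1, whose product supplies the aminopropyl donor for both spermidine and spermine, was at 11.8, 10.6, 9.65 and 9.06 CPM in WT, 32.3, 24.5, 22.7 and 29.8 in Apc, and 36.8, 31.7, 22.9 and 35.7 in Apc Eif3h. All WT libraries were lower than all others, and the other 2 groups overlapped across most of their range. The rise in Apc was 2.65-fold (1.41, SE 0.16, adjusted p = 4.22e-05). Counts on its retrogene Amd2, low at 0.378 CPM in WT and 0.914 in Apc, also rose, by 1.26 (SE 0.32, adjusted p = 0.00584). Most of the sequence is shared, so these counts may be Amd1 reads. With the counts of all copies added Amd1 rose by 1.41 (adjusted p = 3.8e-05).

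Odc1, the entry enzyme of the pathway, was at 65.1, 84.6, 95.7 and 89.8 CPM in WT, 160, 131, 115 and 142 in Apc, and 240, 177, 146 and 211 in Apc Eif3h. The WT libraries lay below all others, and Apc Eif3h replicate 3 was within the Apc range. Odc1 rose 1.64-fold in Apc (0.71, SE 0.16, adjusted p = 0.0029), less than Srm and Amd1 by point estimate, a difference between genes that was not tested. Counts on its copies were 24.9% to 27.2% of its own in WT, 19.3% to 23.8% in Apc and, where Eif3h was floxed too, 17.3% to 23.3%. Of the 8 copies tested all had positive log2 fold changes in Apc, from 0.32 to 1.40, and 4 passed the test. With the copies added Odc1 rose by 0.67 (adjusted p = 0.00299).

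Sms, the spermine synthase gene on the X chromosome, was at 8.37, 8.83, 7.49 and 5.93 CPM in WT, 14.8, 12.2, 13.1 and 16.2 in Apc, and 15.5, 16.3, 14.6 and 17.3 in Apc Eif3h. The groups with and without Apc deficiency were separate, and per kilobase of exon it was the lowest of the 4 synthesis genes in each group. It rose 1.83-fold in Apc (0.87, SE 0.14, adjusted p = 0.000303), and Sms-ps rose by 0.94 (SE 0.17, adjusted p = 0.000727). WT and Apc each held 1 library from a female and Apc Eif3h held 0, and the call also held among males only.

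**Figure D2:**
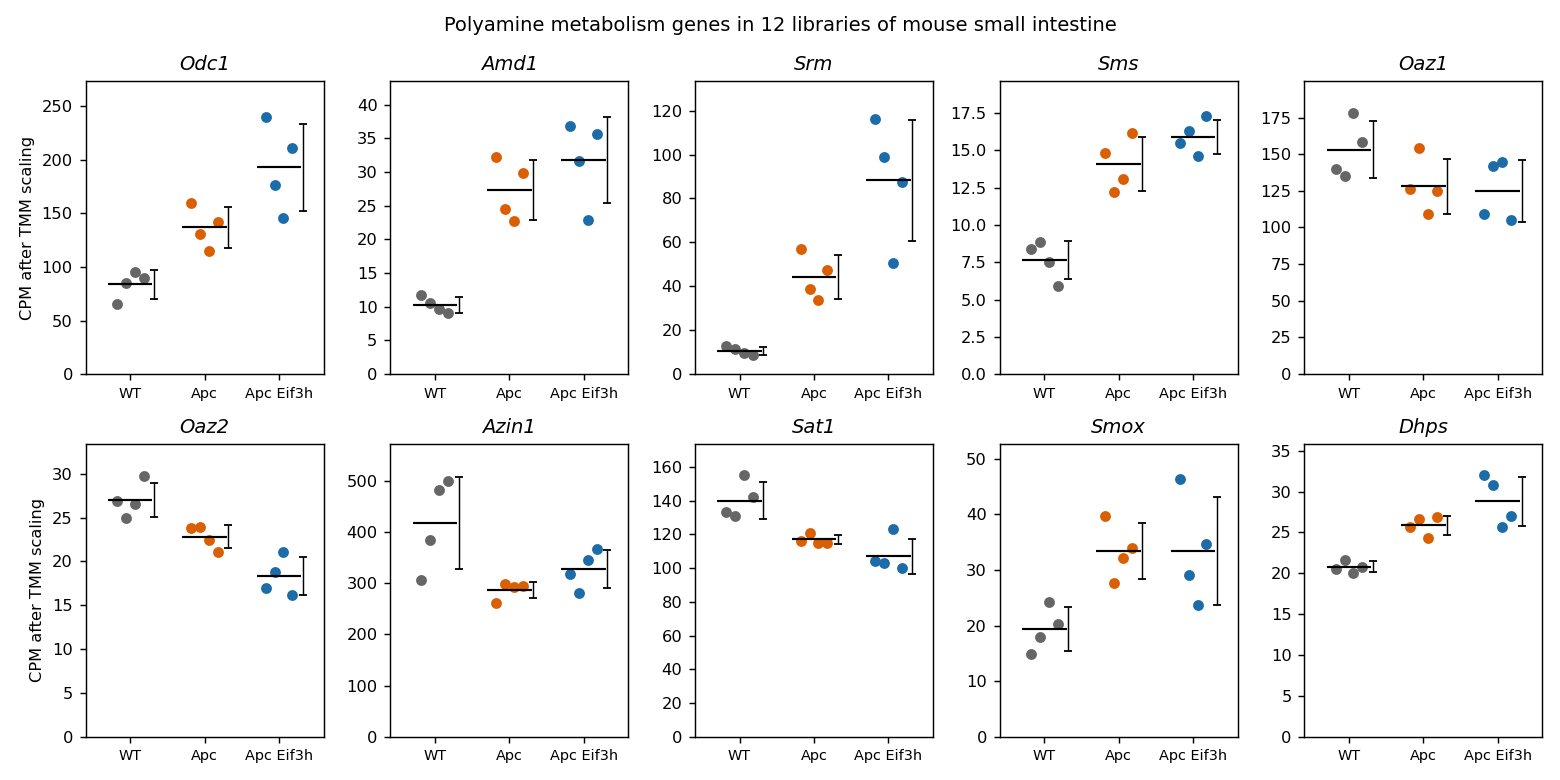
CPM after TMM scaling (vertical axes, from 0) for each of the 10 genes in every library, by group; points are the 4 libraries, horizontal lines the mean and bars beside them ± SD. The 4 synthesis genes in WT lie below all Apc and Apc Eif3h libraries, and Sat1 in WT lies above them.

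The regulators of ornithine decarboxylase did not follow Odc1. Oaz1, the main antizyme gene, was at 140, 135, 178 and 158 CPM in WT, 126, 154, 109 and 125 in Apc, and 109, 142, 145 and 105 in Apc Eif3h, with overlapping groups. Its difference from WT in Apc was -0.25 (SE 0.14, adjusted p = 0.144), and with Oaz1-ps added -0.28 (SE 0.12, adjusted p = 0.0572). Oaz1-ps itself, at 77.6 ± 10.7 CPM in WT and 61.2 ± 5.23 in Apc (SD, n = 4), was lower in Apc by the same test (-0.34, SE 0.11, adjusted p = 0.0239). Oaz2, a second antizyme gene, was at 26.9, 24.9, 26.5 and 29.7 CPM in WT and 23.8, 23.9, 22.4 and 21.1 in Apc. These groups did not overlap, but the difference of -0.24 (SE 0.10, adjusted p = 0.0536) missed the threshold. It passed with DESeq2 (adjusted p = 0.0327), without WT replicate 2 (0.0463) and with the counts of its copies added (0.0385). With library totals only the difference was -0.012 (adjusted p = 0.921), and it also missed with no filter (0.167) and among males only (0.164).

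Azin1 encodes a protein related to ornithine decarboxylase that has no decarboxylase activity and binds antizyme. It was at 306, 384, 482 and 499 CPM in WT, 262, 298, 292 and 295 in Apc, and 318, 281, 346 and 367 in Apc Eif3h. WT replicate 1 lay close to the Apc libraries and the other 3 WT libraries well above them. Azin1 fell by 0.54 on the log2 scale in Apc (SE 0.14, adjusted p = 0.00693), and the call was lost with library totals only (-0.30, adjusted p = 0.052) and among males only (-0.41, adjusted p = 0.0663).

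Among the catabolic genes, Sat1 and Smox moved in opposite directions. Sat1 encodes the acetyltransferase that marks spermidine and spermine for export or oxidation, and it lies on the X chromosome. It was at 133, 131, 155 and 142 CPM in WT, 116, 121, 115 and 115 in Apc, and 104, 103, 123 and 99.9 in Apc Eif3h, with no overlap between WT and either other group. Sat1 fell by 0.26 in Apc (SE 0.08, adjusted p = 0.016). This small change turned on the scaling: with library totals only it was -0.03 (adjusted p = 0.708), below the shifted median of all genes. The call was also lost with no filter on low counts (adjusted p = 0.0675), among males only (0.0747) and without WT replicate 3 (0.05 after rounding).

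Spermine oxidase, Smox, converts spermine back to spermidine with release of hydrogen peroxide, and it shared 0 of its 36-base stretches with any other gene. It was at 14.8, 18, 24.2 and 20.3 CPM in WT, 39.6, 27.6, 32.2 and 34.0 in Apc, and 46.3, 29.0, 23.6 and 34.6 in Apc Eif3h. WT and Apc were separate, while Apc Eif3h replicate 3 lay within the WT range. Smox rose 1.72-fold in Apc (0.79, SE 0.20, adjusted p = 0.00604).

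Dhps, which carries out the first step of hypusination, was at 20.5, 21.6, 20 and 20.8 CPM in WT, 25.7, 26.7, 24.3 and 26.9 in Apc, and 32, 30.8, 25.7 and 27.0 in Apc Eif3h. Its WT libraries were close together and below all others. Dhps rose 1.25-fold in Apc (0.32, SE 0.09, adjusted p = 0.00849), the smallest change among the 6 genes that rose.

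**Figure D3:**
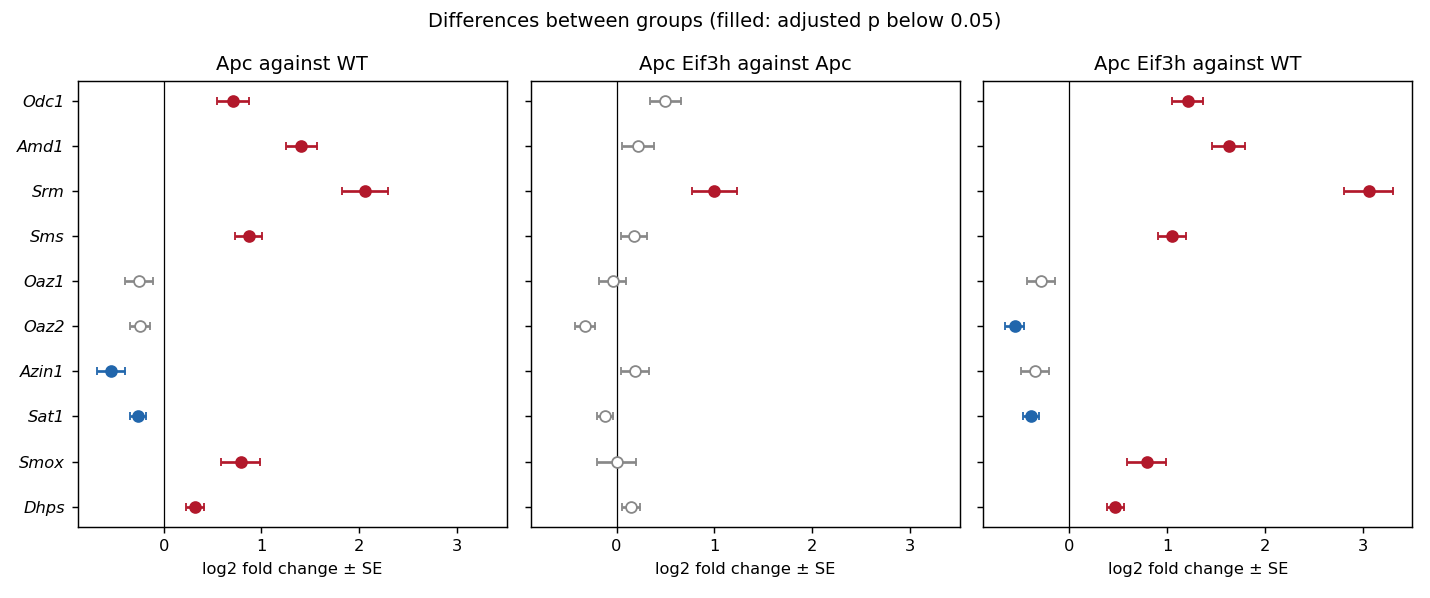
Log2 fold change with its SE (horizontal axis) for each of the 10 genes in the 3 comparisons; filled points passed an adjusted p of 0.05, red for higher and blue for lower, and open points did not. Srm is farthest to the right in each panel, at 2.06, 1 and 3.06.

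The comparison of Apc Eif3h with Apc, which is matched for day by the labels, asks what loss of Eif3h adds in Apc-deficient intestine. Srm was the 1 gene of the 10 that rose, and 0 fell by edgeR, where 4.27% of all genes tested were higher and 2.78% lower, 7.05% in all. Srm went from 44.3 ± 10.1 CPM in Apc to 88.2 ± 27.6 in Apc Eif3h (SD, n = 4), a 1.99-fold rise (log2 fold change 1, SE 0.23, adjusted p = 0.0226). The summed fibroblast level was also separate between these groups (719 to 1230 CPM in Apc, 521 to 709 in Apc Eif3h), with 0 of 6 markers called, and its part in the result was not tested. This call was lost without Apc replicate 2 (adjusted p = 0.0628), Apc replicate 3 (0.082), Apc Eif3h replicate 1 (0.061) or Apc Eif3h replicate 2 (0.0564), and its log2 fold change stayed between 0.84 and 1.21 when any 1 of the 8 libraries was left out. In the groups compared, 1 of 10 genes (Oaz2) had libraries that did not overlap, against 15.2% of all genes tested. With library totals only, 49.8% of calls over all genes were higher in place of 60.6%.

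For the other 9 genes the test did not separate Apc Eif3h from Apc. Odc1 came closest among the synthesis genes, with 137 ± 18.9 CPM in Apc and 193 ± 40.9 in Apc Eif3h (0.50, SE 0.16, adjusted p = 0.0821). It passed without Apc Eif3h replicate 3 (0.63, adjusted p = 0.0243) and with DESeq2 (adjusted p = 0.0492). Oaz2 was at 22.8 ± 1.30 CPM in Apc and 18.3 ± 2.18 in Apc Eif3h (-0.32, SE 0.10, adjusted p = 0.0721), and it passed without Apc Eif3h replicate 3 (-0.37, adjusted p = 0.0299), with DESeq2 (0.0421) and with library totals only (0.0406). These and Srm are the 3 genes with an unadjusted p below 0.05, as were 4095 of all genes tested. The remaining 7 lay between -0.12 (Sat1) and 0.22 (Amd1), with SEs of 0.08 to 0.20, and Smox was level at 33.4 CPM in both groups.

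Against WT, Apc Eif3h held the same 4 synthesis genes, Smox and Dhps at higher levels, and Sat1 and Oaz2 at lower levels. This is again 6 higher and 2 lower of 10, where 29.8% of all genes tested were higher and 28.1% lower, 57.8% in all. Groups did not overlap in 7 of the 10, against 47.7% of all genes tested, and the median was 0.63 against -0.029 for all genes. The comparison shares its WT libraries with the first, so the 2 are not independent. Srm was 8.31-fold higher (3.06, SE 0.25, adjusted p = 4.21e-06), 90th by p among the 17394 genes. Amd1 was 3.09-fold higher (1.63, adjusted p = 9.79e-06), Odc1 2.31-fold (1.21, adjusted p = 6.53e-05) and Sms 2.08-fold (1.05, adjusted p = 5.52e-05). Oaz2 fell by 0.56 (SE 0.10, adjusted p = 0.000451) and Sat1 by 0.39 (SE 0.08, adjusted p = 0.00146). Both of these calls held with library totals only, which moved the median of all genes to 0.171 and the share of higher calls from 51.5% to 67.5%. Azin1 was at -0.35 (SE 0.14, adjusted p = 0.0512) and passed without WT replicate 1 (-0.47, adjusted p = 0.0055), without Apc Eif3h replicate 4 (0.0482) and with DESeq2 (0.0371). It was at -0.14 (adjusted p = 0.338) with library totals only and -0.25 (0.177) among males only.

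Ratios of 2 genes within a library do not depend on how libraries are scaled, and they show unequal change without saying which gene moved. Counts of Odc1 per count of Oaz1 were 0.465, 0.627, 0.538 and 0.568 in the WT libraries, 1.28, 0.852, 1.06 and 1.13 in Apc, and 2.20, 1.25, 1.01 and 2.01 in Apc Eif3h. All 8 libraries with Apc deficiency were above all WT libraries, and Apc Eif3h spread most widely. Srm per Sms was 1.39 ± 0.138 in WT and 3.14 ± 0.538 in Apc, and Apc Eif3h had 5.51 ± 1.68 (SD, n = 4). Sat1 per Odc1 was 1.70 ± 0.235, 0.865 ± 0.122 and 0.582 ± 0.183. Azin1 per Oaz1, the inhibitor against the antizyme it binds, was 2.73 ± 0.406, 2.27 ± 0.327 and 2.70 ± 0.661, so these groups overlapped.

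**Figure D4:**
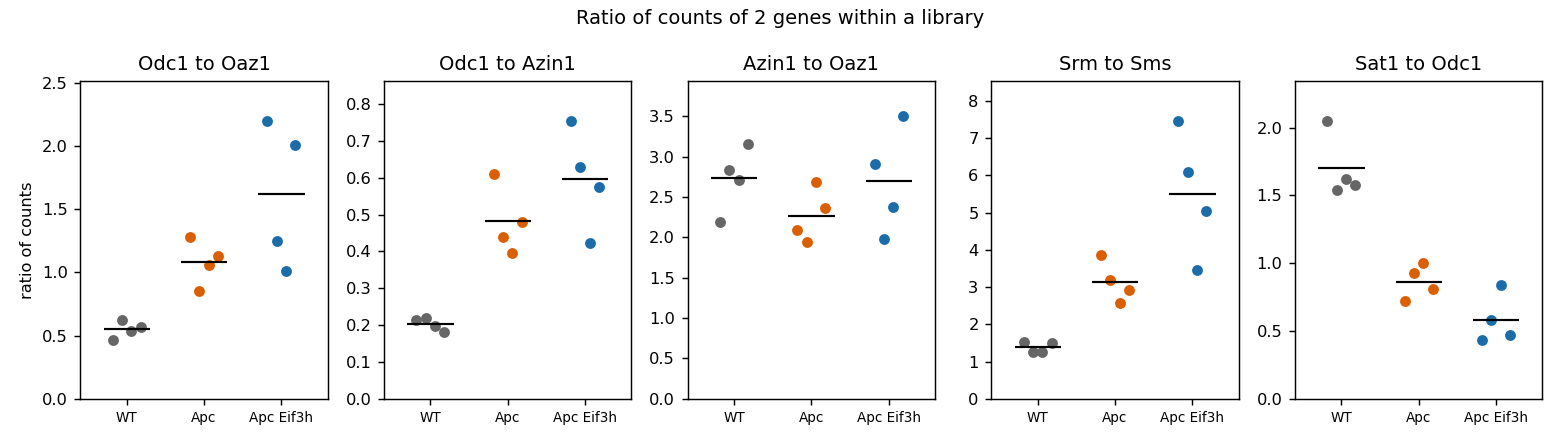
Ratio of the counts of 2 genes within each library (vertical axes, from 0, no unit) by group, with points for the 4 libraries and lines for their mean. Odc1 to Oaz1, Odc1 to Azin1 and Srm to Sms are lowest in WT, Sat1 to Odc1 is highest there, and Azin1 to Oaz1 overlaps between groups.

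Per kilobase of annotated exon, the levels of the genes stood in another order in each group. In WT the highest were Azin1 (66.8 ± 14.4 CPM per kilobase), Oaz1 (59.7 ± 7.61) and Sat1 (50.6 ± 3.99), followed by Odc1 (24.6 ± 3.89), Oaz2 (9.03 ± 0.658), Dhps (8.94 ± 0.29), Srm (6.62 ± 1.08), Smox (4.96 ± 1.02), Amd1 (2.90 ± 0.335) and Sms (1.27 ± 0.212; SD, n = 4). Azin1 and Oaz1, and Oaz2 and Dhps, differed by less than their spread. In Apc Eif3h, Odc1 (56.8 ± 12), Srm (55.1 ± 17.2), Azin1 (52.4 ± 5.90) and Oaz1 (49.0 ± 8.30) led and differed by less than their spread, ahead of Sat1 (38.7 ± 3.73). Exon length counts every annotated exon, introns retained in some transcripts included, so these levels are approximate. Counts on copies are left out of them, and Oaz1-ps was at 77.6 ± 10.7 CPM in WT and 67.2 ± 8.91 in Apc Eif3h. The places of Oaz1, Odc1, Amd1 and Sms in this order therefore also depend on how shared reads were assigned.

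Beyond the 10, 30 other genes of the pathway were looked at as lists, of which 26 passed the filter. In Apc against WT 13 of the 26 rose and 7 fell, where 27.7% of all genes tested were higher and 24.1% lower, so the number that fell is near the background share. In Apc Eif3h against Apc 1 rose and 0 fell by edgeR, also near the shares over all genes of 4.27% and 2.78%. Methionine salvage, which recycles the methylthioadenosine that Srm and Sms release, rose in 5 of 5 genes in Apc, where 27.7% of all genes tested were higher. Mtap, the phosphorylase that takes up methylthioadenosine, was at 14.6, 12.9, 10.9 and 9.64 CPM in WT and 43.4, 28.5, 27.8 and 39.3 in Apc, a 2.88-fold rise (1.53, SE 0.19, adjusted p = 5.58e-05). Mri1, the next enzyme, rose by 1.09 (SE 0.10, adjusted p = 1.34e-05) and Adi1, near the end of the cycle, by 0.90 (SE 0.13, adjusted p = 0.000134). Enoph1 was the 1 listed gene that rose in Apc Eif3h over Apc, from 27.6 ± 1.58 to 34.4 ± 1.90 CPM (0.32, SE 0.08, adjusted p = 0.0305), a call that was lost without any 1 of Apc replicates 1, 2 and 3 and Apc Eif3h replicates 1, 2 and 4 (adjusted p = 0.0648 to 0.105). It was also lost with library totals only (0.0925), no filter (0.102), males only (0.0726), sex as a term (0.0568) and the replicate block (0.0601).

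Genes that supply the precursors split. Mat2a, which makes S-adenosylmethionine, rose from 113 ± 15.9 CPM in WT to 235 ± 10.5 in Apc (1.05, SE 0.10, adjusted p = 1.1e-05). Slc7a1, a carrier of arginine and ornithine, rose by 1.04 (SE 0.18, adjusted p = 0.000535) and Agmat by 0.90 (SE 0.16, adjusted p = 0.000699). Arg2, the mitochondrial arginase that makes ornithine, was at 472, 479, 434 and 544 CPM in WT and 97.1, 186, 129 and 111 in Apc, and it fell by 1.88 (SE 0.30, adjusted p = 0.000319). Apc Eif3h held Arg2 at 76.1, 131, 251 and 128 CPM, highest in replicate 3. Arg1 passed (-1.99, adjusted p = 0.0417) through WT replicate 1 at 52.1 CPM, and without that library it was at -0.40 (adjusted p = 0.501). Mat2b fell by 0.29 (adjusted p = 0.0118), a call lost with library totals only, with no filter and among males only.

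Of the other catabolic genes, Paox, the oxidase of acetylated polyamines, rose by 1.13 in Apc (SE 0.25, adjusted p = 0.00266). Aoc1, the diamine oxidase that degrades putrescine and histamine, was at 649, 838, 1280 and 916 CPM in WT and 186, 380, 311 and 161 in Apc, and it fell by 1.83 (SE 0.37, adjusted p = 0.00134). These groups did not overlap, and Apc Eif3h was at 303, 164, 477 and 185 CPM, with replicate 3 above all Apc libraries and below all WT libraries. Eif5a, which encodes the factor that Dhps modifies, rose from 326 ± 20.4 CPM in WT to 631 ± 101 in Apc (0.95, SE 0.14, adjusted p = 0.000208) and was at 800 ± 134 in Apc Eif3h (0.34 over Apc, adjusted p = 0.168, but 0.043 without Apc Eif3h replicate 3). Dohh, which completes hypusine, was at 0.24 in Apc against WT (SE 0.13, adjusted p = 0.137). Azin2, a second antizyme inhibitor gene at low level (3.04 ± 0.513 CPM in WT), fell by 1.06 (SE 0.28, adjusted p = 0.00637). Of 6 transporter genes tested 2 rose and 2 fell in Apc, near the shares of 27.7% higher and 24.1% lower over all genes. The organic cation carrier Slc22a3, at low level (1.85 ± 0.684 CPM in WT), rose by 1.52 (SE 0.30, adjusted p = 0.00116). Lower were Slc18b1 (-0.76, SE 0.14, adjusted p = 0.000846) and Slc3a2 (-0.81, SE 0.16, adjusted p = 0.00143), at 77.8 ± 6.86 and 361 ± 43.4 CPM in WT.

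**Figure D5:**
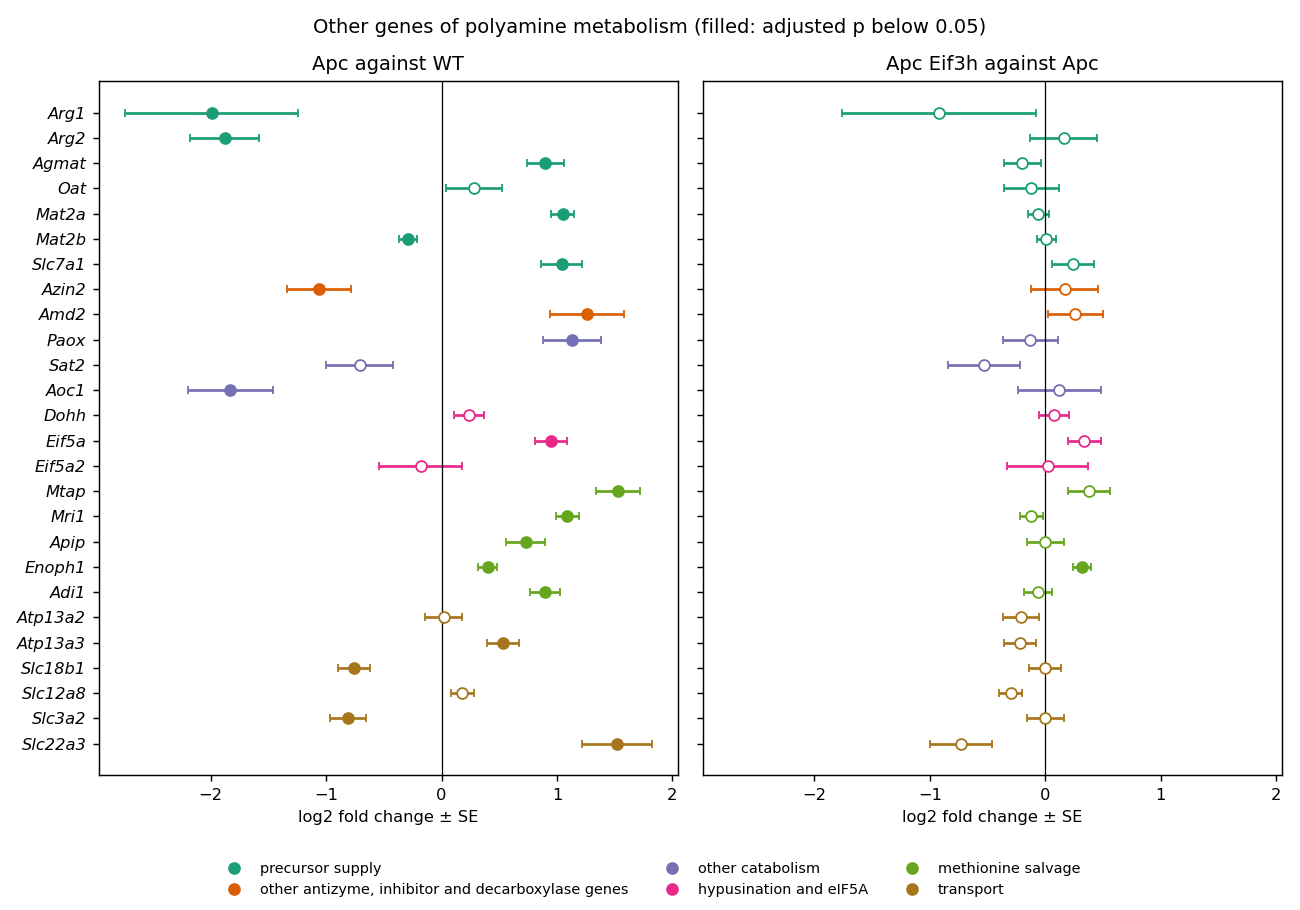
Log2 fold change with its SE (horizontal axis) for the 26 other pathway genes that were tested, coloured by list, in Apc against WT and in Apc Eif3h against Apc; filled points passed an adjusted p of 0.05. The left panel has 13 filled points above 0 and 7 below, and the right panel has Enoph1 alone.

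Myc was at a mean of 19.4 CPM in WT and 94.2 in Apc, and Apc Eif3h had 91.8. It was higher in Apc than in WT (2.27, SE 0.21, adjusted p = 1.11e-05) and not separated by the test between Apc Eif3h and Apc (-0.04, SE 0.19, adjusted p = 0.933). Since the synthesis genes rose together with Myc, the 250 bases before each RefSeq start (GRCm38.p6) were searched for CACGTG, the E-box that MYC and MAX bind, which reads alike on both strands. Windows were found for 8 of the 10 genes, 9 windows in all, with Srm and Azin1 unmatched, and 1 held the motif, an upstream start of Sms. Over all 32851 windows 6.02% held it. The Sms window is shown with the motif in capitals beside that of Amd1, which lacks it; both are 5′ to 3′ and end at the base before the start.
Sms (chrX:157492288-157492537, minus strand): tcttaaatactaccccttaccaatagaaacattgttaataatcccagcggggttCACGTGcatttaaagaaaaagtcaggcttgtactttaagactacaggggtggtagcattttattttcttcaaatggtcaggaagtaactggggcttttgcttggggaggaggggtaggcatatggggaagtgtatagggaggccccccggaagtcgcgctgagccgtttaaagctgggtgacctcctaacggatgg
Amd1 (chr10:40302189-40302438, minus strand): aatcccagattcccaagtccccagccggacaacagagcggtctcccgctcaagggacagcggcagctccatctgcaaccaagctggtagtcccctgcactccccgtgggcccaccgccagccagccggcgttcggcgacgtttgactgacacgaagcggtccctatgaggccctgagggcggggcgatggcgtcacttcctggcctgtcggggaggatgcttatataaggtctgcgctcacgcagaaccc
The motif begins at position -196 from the start of Sms, and the second Sms window had none. The windows of Odc1, Smox, Dhps, Oaz1, Oaz2 and Sat1 also had none, which says only that these letters are not in these bases.

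Across the 12 libraries Odc1 correlated with Srm at r = 0.93, Amd1 at 0.90 and Sms at 0.84 (Pearson, log2 CPM), and with Oaz2 at -0.89, Sat1 at -0.83 and Azin1 at -0.38. The libraries fall into 3 groups that differ in these genes, so the values mostly restate the group differences. Of 12740 other genes compared, those most like Odc1 were R3hcc1 (0.973), Phf10 (0.972), Arih1 (0.972), Itpripl1 (0.972) and Aars (0.971). Those most like Sat1 were Dbi, Syap1 and Pdp2 (0.981 each), Chmp1b (0.98) and Arl6ip1 (0.979).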

How the data were processed

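RNA of mouse small intestine was sequenced in 12 libraries (per the labels' protocols, RNeasy Micro and TruSeq RNA kits and a NextSeq 500 run with 36 cycles for each end). The deposited values are raw counts per gene, not normalized. FastQC 0.11.8, Trim Galore 0.6.4, HISAT2 2.1.0, featureCounts 1.6.4 and GRCm38 are named in the submitters' processing notes, without roles; the annotation release, strand setting and treatment of multiply mapped reads were not given in the sources used here. Groups came from sample titles. Symbols and coordinates are from GENCODE M21 (GRCm38), which 55240 of 55421 identifiers matched.

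The test on counts was run in edgeR 4.0.16 under R 4.3.3 (filterByExpr, TMM, quasi-likelihood fit of all 12 libraries with 1 mean per group), with Benjamini-Hochberg adjustment over 17394 genes and calls below 0.05. The SE of a log2 fold change is its size over the root of the F statistic. DESeq2 1.42.0 was an alternative, and the closing section gives the others. Log2 CPM used a prior count of 2. Shared 36-base stretches are exact matches between GENCODE transcripts on either strand. Copies are pseudogenes, or Amd2, with at least 100 of them. The members and lists were chosen with earlier results of these data known. All 10 members are described; other pathway genes are named from fixed lists, and the 5 genes most like Odc1 and Sat1 by Pearson r were taken at a mean log2 CPM of 1 or more, without predicted models. The single copies and Wdr83 were named after their values were seen. Of the pathway genes first listed, 1 is not reported here and is left out of the list counts. No protein sequences were used here.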

Additional observations from a re-analysis of the deposited data

Results flagged for a closer look

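In 108 sets of 4 libraries (36 genes in 3 groups), 7 held a library whose distance from the nearest other exceeded 0.829 of the set's range, and chance gives about 5% of sets. Azin1 was at 262 CPM in Apc replicate 1, against 292 to 298 in the other 3. Arg1 was at 52.1 CPM in WT replicate 1, against 5.19 to 6.40, and at 9.19 in Apc replicate 4, against 2.23 to 3.03. In Apc replicate 4, Paox was at 39.0 CPM, against 19.5 to 21.5, and Slc22a3 at 2.96, against 5.91 to 6.47. Eif5a was at 296 CPM in WT replicate 2, against 335 to 338, and Slc18b1, a vesicular polyamine carrier, at 88.1 in WT replicate 3, against 74.1 to 74.8.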

How the results depend on the processing

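Under the alternatives (library totals only, DESeq2, no filter, males only, sex as a term, 2 groups alone, the replicate block, each library left out, copies added, and Apc Eif3h with replicates 1 and 4), the 10 genes kept direction and side of the threshold in 151 of 160 values for Apc against WT, 149 of 170 for Apc Eif3h against Apc and 165 of 170 for Apc Eif3h against WT. The last 2 alternatives were chosen after seeing the data, and since replicate 3 was seen to lie nearest WT, larger changes without it follow from that choice. The number lower in Apc against WT went from 2 to 0 with library totals only and among males only, to 1 with no filter, and to 1 to 3 with a library left out. In Apc Eif3h against Apc, 2 rose and 1 fell with DESeq2 and with replicates 1 and 4 alone, 1 fell with library totals only, and leaving out a library gave 0 to 2 higher and 0 to 1 lower. There Smox turned from 0 to -0.023 with library totals only and -0.007 with the replicate block, and to between -0.191 and 0.16 with a library left out; Oaz1 turned from -0.04 to 0.022 with copies added and to between -0.108 and 0.063 with a library left out. Other than through fewer samples or genes, the cause was not tested. Calls over all genes in that comparison ran from 406 (without Apc replicate 3) to 1775 (DESeq2), against 1226, and were 993 with the replicate block. Deviations of same-numbered libraries correlated at -0.142 to 0.236, which does not settle whether replicate numbers pair libraries. Apc Eif3h replicates 1 (0.236) and 4 (0.123) matched their own number best among Apc libraries, and replicate 3 (0.19) among WT libraries. All other best matches were with another number. With the block the 10 genes gave 6 higher and 2 lower in Apc against WT, and Azin1 in Apc Eif3h against WT passed (-0.33, adjusted p = 0.0333). Oaz3, Satl1, Mat1a and Slc22a2 failed the filter, with group means of 0 to 0.262 CPM.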

Other observations

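Apc Eif3h replicate 3 was the Apc Eif3h library nearest the WT mean in 9 of the 10 genes, Azin1 being the exception, where it was replicate 4. It was nearest in all 8 of the members called in Apc Eif3h against WT. Of all 10059 genes called there it was nearest in 6232 (62%), so the polyamine genes share this with most changed genes. That library also had the highest Eif3h level of its group (54.6 CPM, against 25.9 to 43.1), the lowest Myc (63.4 CPM, against 91.6 to 117), the lowest summed cell cycle level (905 CPM, against 1010 to 1330) and the highest summed enterocyte level (29200 CPM, against 17600 to 21200). The part of these differences in the spread of Srm and Odc1 was not tested.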
